A study of Mus musculus with 9 samples.

Results

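Foxj1 and genes of motile cilia were followed through RNA sequencing libraries of 9 mouse cell cultures. The 42 genes, out of 47729 in the count table, were taken by symbol: 9 regulators of the cilia programme and 33 genes for structural or assembly proteins of the beating axoneme. Per the labels, the NSC libraries (cultures 1, 3 and 5) are primary neural stem cells of wild type genotype. The LTR libraries (1 to 3) are NSC-derived tumour cells with the genotype lgT/Ras, and the NF1 libraries (1 to 3) are NSC-derived tumour cells with the genotype shp53, Nf1-/-, CDK4. All 9 cultures came from the subventricular zone and were kept for up to 10 passages. The labels tell the 3 cultures of a group apart only by number, so the p-values measure the spread between these cultures, and whether each tumour culture was transformed on its own is not stated.

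A motile cilium is driven by outer and inner dynein arms on the doublet microtubules of its axoneme, and radial spokes, a central pair and the nexin links coordinate the beat. In the wall of the lateral ventricle, which borders the subventricular zone, ependymal cells carry tufts of such cilia and move cerebrospinal fluid. The programme is started by the geminin-family proteins Gmnc and Mcidas. It is carried by the forkhead factor Foxj1 together with RFX factors, which bind X-box sequences near the start sites of ciliary genes.

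Total counts ran from 28600479 (LTR 2) to 57231024 (NSC 3), and 15696 genes had enough counts to be tested. Per the column headers the NSC libraries share 1 sequencing lane and the tumour libraries another, so lane and tumour state cannot be told apart. Trp53 measured 101 to 114 CPM (counts scaled to a common library size) in NSC and 151 to 221 CPM in the NF1 libraries, although their label names shp53. They are therefore called the libraries labelled NF1, also where directions are drawn from them. Cdk4 stood at 393 CPM in NF1 2, within the NSC range of 325 to 455, and at 794 and 1123 CPM in NF1 1 and NF1 3. LTR, whose label names neither gene, read 223 to 281 CPM for Trp53 and 934 to 1020 CPM for Cdk4. Higher levels than in NSC were thus not particular to the libraries labelled NF1. Nf1, named as deleted, read 59.0, 97.1 and 40.1 CPM in NF1 1 to 3, against 82.4 to 114 CPM in NSC and 40.3 to 80.0 CPM in LTR. It was not called lower in the libraries labelled NF1 (adjusted p = 0.205), and NF1 2 lay within the NSC range. NSC 3 and NF1 2 stood apart from the other libraries of their groups, and results that rest on them are given with and without them.

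Many motile cilia genes were lower in the tumour lines than in neural stem cells. Against NSC, LTR had 23 members lower, 1 higher (Mcidas) and 10 not called among the 34 that were tested, by edgeR's quasi-likelihood test at a Benjamini-Hochberg adjusted p under 0.05. Of all genes tested in that comparison 35.9% were called, 20.9% lower and 14.9% higher. The libraries labelled NF1 had 16 members lower, 1 higher (Mcidas again) and 17 not called, where 23.1% of all genes were called, 13.1% lower and 10.1% higher. The median log2 fold change of the tested members was -2.95 in LTR and -2.21 in the libraries labelled NF1, against -0.06 and 0.0039 over all genes tested. Both comparisons use the same NSC libraries.

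The filter on low counts shaped who was tested. Foxn4, Gmnc, Ccdc113, Spag6l, Spag17, Hydin, Lrrc6 and Armc4 had too few counts, and 8 of the 34 tested members passed through NSC libraries alone (Dnah9, Dnali1, Spag16, Spef2, Tekt1, Tekt4, Cfap52 and Drc1), so they had to differ. Mcidas passed through tumour libraries alone, so it had to differ too. Without these 9 members, 15 of 25 were lower in LTR, with a median log2 fold change of -2.08, and 8 of 25 in the libraries labelled NF1, with a median of -1.62. No LTR library was over the filter level for 13 tested members, and no NF1 library for 8. Of those 13, Dnah5, Dnah10, Dnah11, Dnaic1 and Cfap44 stay among the 25. All of these but Dnah10 were called lower in LTR, so the 15 still hold calls that the filter favoured. Without the filter, 26 of the 42 members were lower and 1 higher in LTR, and 20 lower and 1 higher in the libraries labelled NF1. By ranges alone, all LTR libraries lay below all NSC libraries for 29 of the 42 members and above them for 1. That lower arrangement held for 22.2%, and the higher one for 17.1%, of the 27482 genes with any count. The libraries labelled NF1 lay wholly below NSC for 23 members and wholly above for 1, against 16.6% and 12.2% of those genes.

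Detection followed the same groups. At least 10 counts were reached by 36, 34 and 35 members in NSC 1, 3 and 5, by 19, 21 and 18 in LTR 1 to 3, and by 19, 26 and 14 in NF1 1 to 3. Of all genes in the count table, 33.0 to 33.1% reached 10 counts in NSC, 29.0 to 29.8% in LTR and 29.5, 31.5 and 28.7% in NF1 1 to 3. NF1 2 was thus the tumour library in which most members, and also most genes of the whole table, were detected. Mcidas was the member without a count in any NSC library. In LTR 7 members had none (Foxn4, Gmnc, Spag6l, Spag16, Spag17, Hydin and Lrrc6), and Gmnc and Armc4 had none in the libraries labelled NF1. A floor of 3 counts corresponds to 0.0541 CPM in NSC 3 and 0.114 CPM in LTR 2, so levels under about these values were not distinguishable from 0, and intervals and floors here cover counting error only. In these bulk libraries, fewer cells of a kind and less RNA per cell cannot be told apart.

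**Figure D1:**
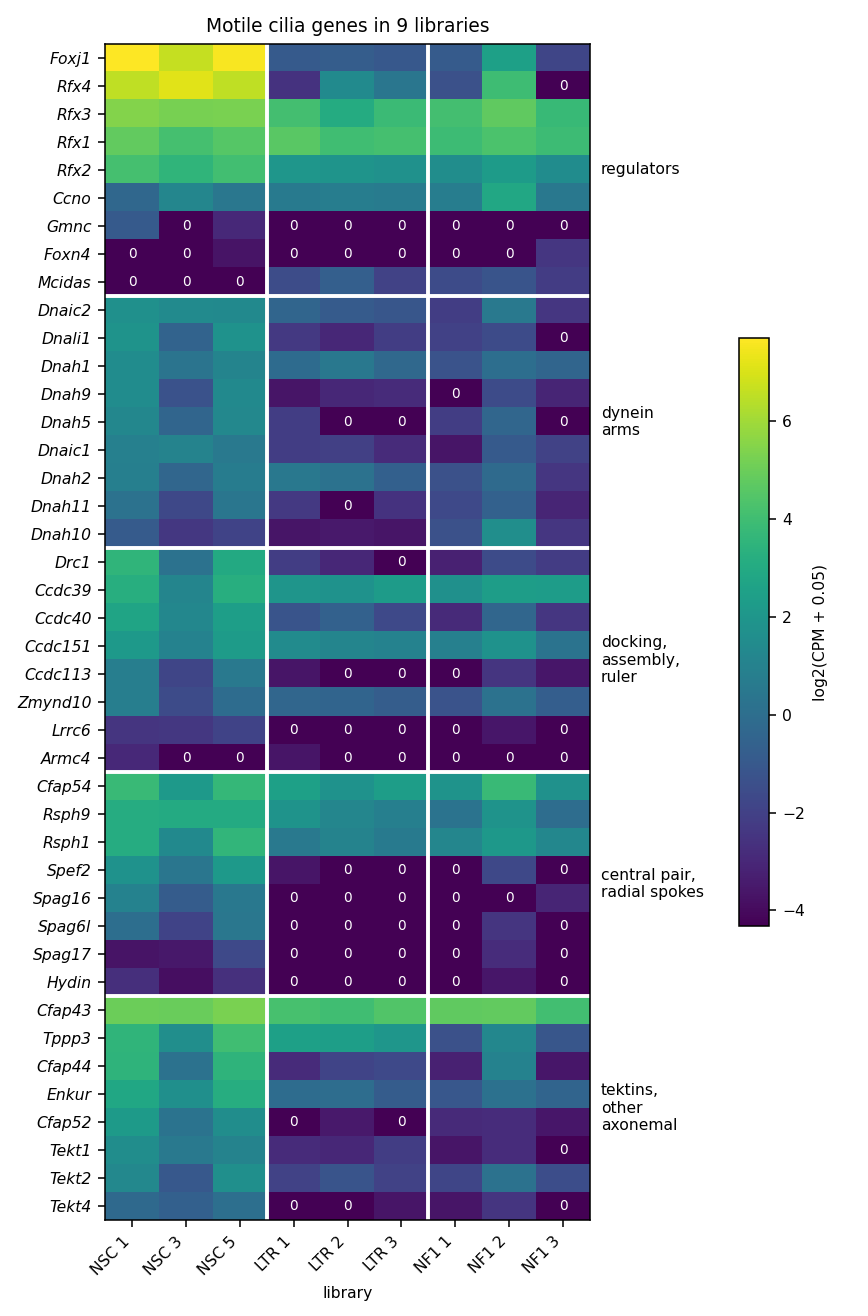
Level of each of the 42 motile cilia genes (rows, grouped by role) in each of the 9 libraries (columns), as log2 of CPM with 0.05 added, with 0 written where a library had no count. Foxj1 and Rfx4 are the brightest rows in the NSC columns, the NSC 3 column is darker than NSC 1 and NSC 5 in most rows, and NF1 2 is the brightest tumour column.

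The promoters were read for letters of RFX and forkhead sites, since many members moved together. RefSeq promoter sequences (GRCm38.p6) were at hand for 36 of the 42 members, Foxj1, Rsph1, Cfap54, Tppp3, Lrrc6 and Armc4 being those without one, and the 250 bases before the start were searched on both strands. A strict form of the X-box, GTTNCC and GGNAAC with 2 free bases between them, was found in 1 of the 36 (2.778%) against 0.444% of 27025 genes with a promoter. Forms with other letters or another spacing were not searched, so promoters without the strict form may still hold an X-box. The RFX half-site GTTGCC was found in 13 (36.111%) against 11.822%. The forkhead letters TGTTTAC were found in 2.778% of members against 3.537% of all, and CCAAT in 41.667% against 37.495%. Half-sites can lie within an X-box, and a match is a description of letters, not a binding site. The half-site was present in 8 of 21 members called lower in LTR that have a promoter and in 5 of the other 15. The windows below show the 1 strict X-box, and the half-sites of the 4 called members holding one that had the smallest adjusted p in LTR. Matching letters are in capitals, 5′ to 3′ on the strand of the gene. Rfx2 lies at chr17:56831074-56831169 on the minus strand, Tekt1 at chr11:72361883-72361962 on the minus strand, and Mcidas at chr13:112993628-112993723 on the plus strand. Enkur lies at chr2:21205366-21205444 on the minus strand, and the Ccdc151 window at chr9:22002647-22002676, minus strand. The 250 bases searched before the Ccdc151 start overlap an annotated exon of Prkcsh, and whether the X-box itself does was not read.
Rfx2: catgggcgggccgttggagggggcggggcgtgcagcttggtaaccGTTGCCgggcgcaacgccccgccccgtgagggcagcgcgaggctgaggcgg
Tekt1: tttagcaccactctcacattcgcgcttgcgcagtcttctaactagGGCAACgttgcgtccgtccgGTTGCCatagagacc
Mcidas: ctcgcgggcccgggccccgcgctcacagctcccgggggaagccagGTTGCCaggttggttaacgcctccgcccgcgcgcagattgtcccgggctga
Enkur: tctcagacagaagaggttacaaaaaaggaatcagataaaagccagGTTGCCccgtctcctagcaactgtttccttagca
Ccdc151: cgcgggcgGTTTCCTTGGGAACgtgggcgg

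Of the 9 regulators, 4 were lower and 1 higher in LTR, and 3 were lower and 1 higher in the libraries labelled NF1, with 7 tested. Foxj1 (ENSMUSG00000034227, GRCm38 chr11:116330704-116335399, minus strand) is the forkhead factor without which motile cilia do not form. It stood at 206, 99.9 and 189 CPM in NSC 1, 3 and 5, at 0.474, 0.534 and 0.448 CPM in LTR 1 to 3, and at 0.492, 5.63 and 0.239 CPM in NF1 1 to 3. No tumour library overlapped the NSC range, NSC 3 had the lowest level among the stem cells, and NF1 2 the highest among the tumour cells at 3.41% of the NSC mean. Foxj1 fell by 8.40 ± 1.17 (SE) on the log2 scale in LTR (adjusted p = 0.00162), and the change among libraries labelled NF1 was -6.28 ± 1.04 (adjusted p = 0.00424). It was called in both comparisons under all 19 alternative settings. Per length, Foxj1 was the most abundant member in NSC, at 62.9 ± 21.8 RPKM (SD, n = 3), ahead of Rfx4 at 23.0 ± 6.22 and Rsph1 at 5.61 ± 3.50 RPKM.

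The RFX factors are winged-helix proteins that share a DNA-binding domain. Rfx4, the family member made mainly in brain and testis, stood at 91.7, 143 and 91.6 CPM in NSC 1, 3 and 5, at 0.119, 2.67 and 1.28 CPM in LTR, and at 0.348, 15.5 and 0 CPM in NF1 1 to 3. No tumour library reached the stem cell range. It fell by 6.34 ± 1.78 on the log2 scale in LTR (adjusted p = 0.0224), a call lost without LTR 1 (0.0622), LTR 2 (0.0508) or LTR 3 (0.0756). Among libraries labelled NF1 it differed by -4.36 ± 1.60 (adjusted p = 0.0769), and it was called by limma-voom (0.00619) and without the filter (0.0260). Leaving out NF1 2 made that -9.17 (adjusted p = 0.000649). Rfx2 and Rfx3 are the RFX factors most closely tied to ciliary genes. Rfx2 read 17.9, 11.6 and 16.4 CPM in NSC against 2.83 to 4.77 CPM over the 6 tumour libraries, and fell by 2.08 ± 0.33 in LTR (adjusted p = 0.00260), and the change among libraries labelled NF1 was -2.12 ± 0.33 (adjusted p = 0.00346). Rfx3 read 43.4, 37.8 and 38.4 CPM in NSC, 16.8, 8.43 and 14.6 CPM in LTR and 17.0, 27.0 and 13.7 CPM in NF1 1 to 3. It fell by 1.59 ± 0.33 in LTR (adjusted p = 0.00697), and the change among libraries labelled NF1 was -1.05 ± 0.32 (adjusted p = 0.0433). The second call was lost when any of 7 single libraries was left out, with an adjusted p of up to 0.134, and with library totals in place of TMM (0.0529). Rfx1, the broadly expressed family member, overlapped between the groups, at 17.8 to 28.1 CPM in NSC, 15.9 to 24.5 CPM in LTR and 14.8 to 19.6 CPM in the libraries labelled NF1, and did not pass in either comparison (-0.24 ± 0.26, adjusted p = 0.505, and -0.48 ± 0.26, adjusted p = 0.214).

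Mcidas, which encodes multicilin, a starter of the multiciliated programme upstream of Foxj1, was the 1 member called higher. It had no count in NSC, 10, 15 and 7 counts in LTR 1 to 3, and 10, 12 and 5 counts in NF1 1 to 3, between 0.171 and 0.572 CPM. Its level was at least 14.9-fold higher in LTR (adjusted p = 0.00427) and at least 12.4-fold higher in the libraries labelled NF1 (adjusted p = 0.00736), against a floor of 3 counts over the NSC group. These levels are low, and with no count in NSC the gene entered the test only through the tumour libraries, where it is high. Its neighbour Ccno (chr13:112987802-112990777, with Mcidas at chr13:112993845-113000394 on the same strand) encodes cyclin O, which acts in centriole amplification. Ccno read 0.767, 2.25 and 1.31 CPM in NSC, 1.45, 1.64 and 1.55 CPM in LTR and 1.68, 7.29 and 1.36 CPM in NF1 1 to 3, with overlapping groups and no call (adjusted p = 0.923 and 0.208). Gmnc, the geminin-family protein that acts before Mcidas, had 18, 0 and 3 counts in NSC 1, 3 and 5 and none in the 6 tumour libraries, which is too few for a test. Foxn4, a forkhead factor of retinal and spinal progenitors, had 1 count in NSC 5 and 4 in NF1 3.

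**Figure D2:**
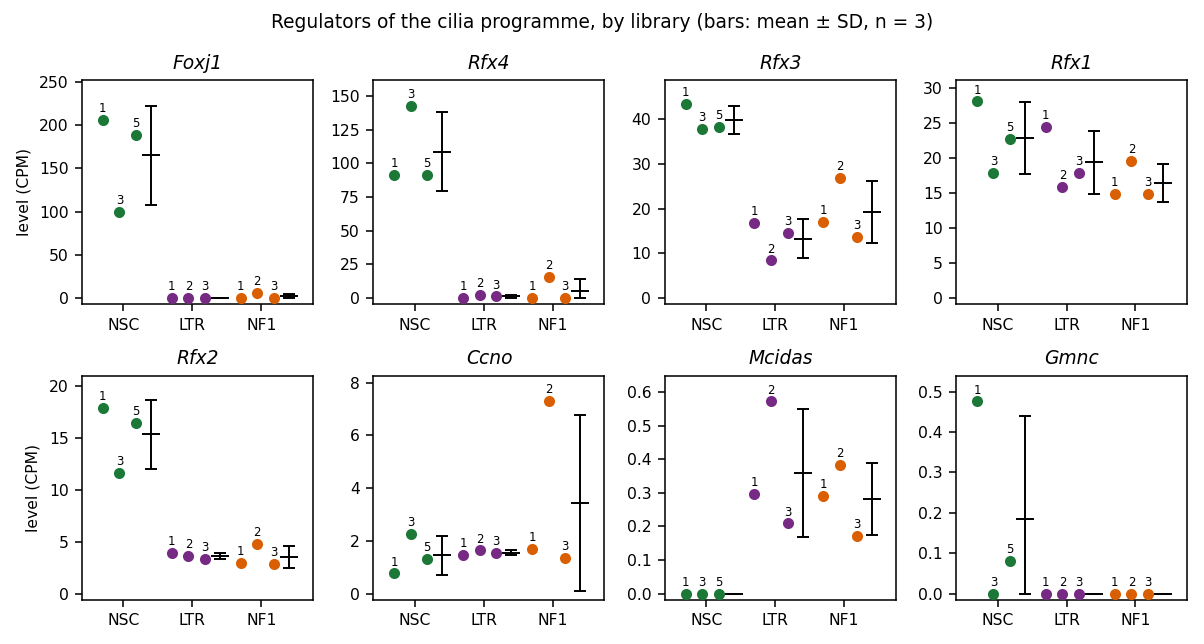
Level of 8 regulators in CPM (vertical axes, each on its own linear scale) in NSC, LTR and NF1 libraries, points labelled by culture number, with mean ± SD bars (n = 3) whose lower ends stop at 0. The NSC points of Foxj1, Rfx4, Rfx2 and Rfx3 lie above all tumour points, Mcidas has its points at 0 in NSC, and Ccno and Rfx1 overlap.

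All 9 dynein arm genes were tested, and 6 were lower in LTR and 3 in the libraries labelled NF1. Among the outer arm motors, Dnah9 read 2.78, 0.361 and 2.57 CPM in NSC 1, 3 and 5, 0.0296, 0.0762 and 0.0895 CPM in LTR and 0, 0.288 and 0.0682 CPM in NF1 1 to 3. Neither tumour group overlapped NSC, although NSC 3 and NF1 2 came close. Dnah9 fell by 4.80 ± 1.19 in LTR (adjusted p = 0.0140), and the change among libraries labelled NF1 was -3.97 ± 1.11 (adjusted p = 0.0314), the first lost without LTR 1 (0.0519) and the second without NSC 1 (0.0968), NSC 5 (0.0897), NF1 1 (0.0741) or NF1 3 (0.0880) or with the 6 libraries compared fitted alone (0.0701). Dnah5, the other main outer arm heavy chain, read 2.33, 0.703 and 2.41 CPM in NSC, 0.178, 0 and 0 CPM in LTR and 0.174, 0.736 and 0 CPM in NF1 1 to 3, where NF1 2 exceeded NSC 3. It fell by 4.79 ± 1.46 in LTR (adjusted p = 0.0305, lost without NSC 1, NSC 5, LTR 2 or LTR 3, at 0.0764 to 0.0943). For the libraries labelled NF1 it differed by -2.56 ± 1.24 (adjusted p = 0.161, and 0.0304 without NF1 2). Dnah11, an outer arm chain of the proximal axoneme, measured 0.866 ± 0.538 CPM in NSC and 0.0892 ± 0.0786 CPM in LTR (adjusted p = 0.0415, lost without any 1 of 6 libraries, at 0.0594 to 0.116, and 0.0536 by limma-voom). In the libraries labelled NF1 it measured 0.312 ± 0.274 CPM (adjusted p = 0.283).

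All 3 intermediate and light intermediate chains were lower in LTR. Dnaic1, an outer arm intermediate chain, read 1.799, 2.02 and 1.42 CPM in NSC against 0.029 to 0.480 CPM over the tumour libraries, and fell by 3.50 ± 0.79 in LTR (adjusted p = 0.00992, called under all 18 alternatives). It fell by 2.87 ± 0.76 among libraries labelled NF1 (adjusted p = 0.0256, lost without NSC 1, NSC 3, NSC 5 or NF1 3, at 0.0508 to 0.0747, and at 0.0565 when the 6 libraries compared were fitted alone). NSC 3 was not low for this gene, in contrast to most members. Dnali1, a light intermediate chain of inner arms, read 3.57, 0.649 and 3.40 CPM in NSC and at most 0.288 CPM in a tumour library. It fell by 4.18 ± 1.02 in LTR (adjusted p = 0.0131, 0.0511 without LTR 2), and the change among libraries labelled NF1 was -3.91 ± 1.00 (adjusted p = 0.0224, lost without NSC 1, NSC 5 or NF1 1, at 0.0688 to 0.0741, and at 0.0565 with the 6 libraries alone). Dnaic2, the partner intermediate chain, fell from 2.79 ± 0.356 to 0.541 ± 0.152 CPM in LTR (adjusted p = 0.0475), a call that did not survive leaving out any NSC or LTR library (0.0744 to 0.140). For the libraries labelled NF1 it read 0.174, 1.41 and 0.136 CPM (adjusted p = 0.0690), and it was called by DESeq2 (0.0105), by limma-voom (0.0103) and without NF1 2 (0.000552).

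The 3 inner arm heavy chains among the members, Dnah1, Dnah2 and Dnah10, were not called in either comparison. Dnah1 measured 2.04 ± 0.832 CPM in NSC, 0.990 ± 0.301 in LTR (adjusted p = 0.142) and 0.684 ± 0.293 in the libraries labelled NF1 (adjusted p = 0.0585). Dnah2 measured 1.36 ± 0.546, 1.02 ± 0.390 (adjusted p = 0.642) and 0.439 ± 0.357 CPM (adjusted p = 0.112). In the libraries labelled NF1, Dnah1 passed by DESeq2 (0.0145) and without NSC 3 (0.0435) or NF1 2 (0.0274), and Dnah2 without NF1 2 (0.0192). Dnah10 stood apart from its family: it had 19, 8 and 8 counts in NSC, 1 count in each LTR library, and 12, 95 and 4 counts in NF1 1 to 3. Its NF1 mean thus rests on NF1 2, where the level was 3.04 CPM, above every NSC library. In LTR, Dnah10 was lower than NSC by a ratio of 8.35 (95% counting interval 2.63 to 42.5) with an adjusted p of 0.0993, which became 0.0181 without NF1 2.

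Of the 8 docking, assembly and ruler genes, 5 were tested and 2 were lower in each tumour line. Drc1, a core protein of the nexin-dynein regulatory complex that links the doublets, read 11.6, 1.12 and 7.83 CPM in NSC 1, 3 and 5, 0.178, 0.0762 and 0 CPM in LTR and 0.0579, 0.288 and 0.171 CPM in NF1 1 to 3. NSC 3 had a level 8.67-fold below the mean of the other stem cell libraries but still above every tumour library. Drc1 fell by 6.27 ± 1.19 in LTR (adjusted p = 0.00506), and the change among libraries labelled NF1 was -5.29 ± 1.12 (adjusted p = 0.0107), and neither call was lost by leaving out 1 library. Ccdc40 and Ccdc39 form the ruler that sets the spacing of arms and spokes along the doublet. Ccdc40 read 6.45, 2.33 and 5.33 CPM in NSC, 0.385, 0.610 and 0.269 CPM in LTR and 0.0869, 0.736 and 0.136 CPM in NF1 1 to 3. It fell by 3.48 ± 0.81 (adjusted p = 0.0112) and by 3.87 ± 0.83 (adjusted p = 0.0115), LTR being given first here and in later pairs, and was called under all 18 alternatives in each. Its partner Ccdc39 was not called: it read 9.07, 2.16 and 9.09 CPM in NSC, 3.43 to 4.80 CPM in LTR and 3.19 to 5.09 CPM in the libraries labelled NF1, with NSC 3 below all tumour libraries (adjusted p = 0.273 and 0.409). Without NSC 3 the LTR difference was -1.06 (adjusted p = 0.0487). Of the Ccdc39 exons, 16.9% are shared with Ttc14 on the other strand, and the library kit does not keep the strand, so its counts are uncertain.

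Ccdc151, an outer arm docking protein, measured 3.73 ± 1.55 CPM in NSC, 2.29 ± 0.392 in LTR and 2.14 ± 1.19 in the libraries labelled NF1 (adjusted p = 0.308 and 0.286). Zmynd10, a cytoplasmic assembly factor for dynein arms, measured 0.955 ± 0.705, 0.655 ± 0.105 and 0.681 ± 0.390 CPM (adjusted p = 0.553 and 0.627), and 10.1% of its exons overlap an antisense transcript. Both genes overlapped between the groups, which does not show that their levels were alike. Ccdc113, a protein near the base of the radial spokes, was too low for the filter but had 65, 13 and 53 counts in NSC, 1, 0 and 0 in LTR and 0, 4 and 1 in NF1 1 to 3. Lrrc6, another assembly factor, had 5, 8 and 8 counts in NSC, none in LTR and 1 in NF1 2. Armc4, a docking protein, had 3 counts in NSC 1 and 1 in LTR 1, so nothing can be said of it at this depth.

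The central pair and radial spokes gave 4 lower calls in LTR and 3 in the libraries labelled NF1, among 5 of 8 genes tested. Spag16, a central pair protein, had 73, 28 and 51 counts in NSC 1, 3 and 5, none in LTR and 0, 0 and 2 counts in NF1 1 to 3. It was at least 36.3-fold lower in LTR (adjusted p = 0.00572), and lower in the libraries labelled NF1 by a ratio of 55.4 (counting interval 15.1 to 461, adjusted p = 0.0130, and 0.0511 without NF1 1). Spef2, which is needed for the central pair projections, had 131, 71 and 169 counts in NSC, 1, 0 and 0 in LTR and 0, 8 and 0 in NF1 1 to 3. Its ratio of NSC to LTR was 266 (counting interval 47.4 to 10522, adjusted p = 0.00540), and it fell by 5.13 ± 1.21 among libraries labelled NF1 (adjusted p = 0.0165, lost without NSC 1 or NSC 5, at 0.0504 and 0.0542). For both genes the few tumour counts came mostly from the libraries labelled NF1.

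The radial spoke heads kept measurable levels in the tumour lines. Rsph1 read 8.57, 2.53 and 12.01 CPM in NSC, 1.39, 2.02 and 1.49 CPM in LTR and 2.26, 4.19 and 2.29 CPM in NF1 1 to 3, so that NSC 3 lay within the NF1 range. It fell by 2.23 ± 0.58 in LTR (adjusted p = 0.0163, lost without NSC 1, NSC 5, LTR 1 or LTR 3, at 0.0509 to 0.0657, and 0.0514 by limma-voom). Among libraries labelled NF1 the difference was -1.40 ± 0.56 (adjusted p = 0.0976, and 0.0373 by DESeq2, 0.0212 without NSC 3 or 0.0408 without NF1 2). Rsph9, its partner in the spoke head, was even in NSC at 8.62, 8.04 and 8.04 CPM, and read 3.53, 2.21 and 1.76 CPM in LTR and 1.16, 3.52 and 0.921 CPM in NF1 1 to 3. It fell by 1.72 ± 0.54 (adjusted p = 0.0341) and by 2.14 ± 0.55 (adjusted p = 0.0227), with no overlap. Leaving out any 1 of 5 libraries ended the LTR call (0.0620 to 0.120), and any 1 of 4 the other (0.0517 to 0.0809). Cfap54, a large central apparatus protein, read 14.0, 4.27 and 12.5 CPM in NSC, 5.63, 3.47 and 5.16 CPM in LTR and 3.53, 14.2 and 3.27 CPM in NF1 1 to 3. NF1 2 thus had the highest level of all 9 libraries, and no call was made (adjusted p = 0.201 and 0.556, the second 0.0317 without NF1 2). Spag6l, Spag17 and Hydin, 3 further central pair proteins, were not tested: they had 12 to 48, 1 to 10 and 1 to 4 counts in the NSC libraries, none in LTR, and 4, 3 and 1 counts in NF1 2 as the 1 library labelled NF1 with any.

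All 8 tektins and other axonemal genes were tested, and 7 were lower in LTR and 5 in the libraries labelled NF1. Tektins are filament proteins along the doublet microtubules. Tekt1 read 2.88, 1.39 and 2.01 CPM in NSC, 0.0889, 0.0762 and 0.179 CPM in LTR and 0.029, 0.096 and 0 CPM in NF1 1 to 3. It fell by 4.13 ± 0.74 (adjusted p = 0.00415) and by 5.53 ± 0.83 (adjusted p = 0.00289), called under all 18 alternatives in each. Tekt4 had 31, 33 and 37 counts in NSC, 0, 0 and 1 in LTR and 1, 4 and 0 in NF1 1 to 3. Its ratio of NSC to LTR was 72.3 (counting interval 12.7 to 2885, adjusted p = 0.00497), and it fell by 3.84 ± 0.91 among libraries labelled NF1 (adjusted p = 0.0166, lost without NSC 1, NSC 5 or NF1 1, at 0.0562 to 0.0739). Tekt2 read 2.38, 0.451 and 3.08 CPM in NSC, 0.207, 0.381 and 0.209 CPM in LTR and 0.232, 1.12 and 0.307 CPM in NF1 1 to 3. It fell by 2.88 ± 0.86 in LTR (adjusted p = 0.0285, lost without any 1 of 5 libraries, at 0.0591 to 0.0978, and 0.0746 by limma-voom), while NF1 2 exceeded NSC 3 and the second comparison was not called (adjusted p = 0.130, and 0.0490 without NSC 3 or 0.0235 without NF1 2). Of the Tekt2 exons, 20.8% overlap a transcript on the other strand.

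Cfap52 and Enkur are proteins of the inside wall of the doublet microtubules. Cfap52 read 4.58, 1.14 and 2.92 CPM in NSC, and had 0, 1 and 0 counts in LTR and 3, 3 and 1 counts in NF1 1 to 3. The ratio of NSC to LTR was 247 (counting interval 44.0 to 9786, adjusted p = 0.00143), and Cfap52 fell by 5.23 ± 0.83 among libraries labelled NF1 (adjusted p = 0.00353). Enkur read 7.09, 3.08 and 9.03 CPM in NSC, 0.889, 0.915 and 0.507 CPM in LTR and 0.434, 1.06 and 0.682 CPM in NF1 1 to 3. It fell by 3.05 ± 0.56 (adjusted p = 0.00438) and by 3.14 ± 0.56 (adjusted p = 0.00566). Both genes were called under all 18 alternatives in each comparison and kept NSC 3 above every tumour library.

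Cfap43 and Cfap44 are partners in the tether of the inner arm motor heads. Cfap44 read 11.3, 1.12 and 11.2 CPM in NSC 1, 3 and 5, 0.0889, 0.229 and 0.269 CPM in LTR and 0.0579, 1.95 and 0.0341 CPM in NF1 1 to 3. NF1 2 thus exceeded NSC 3. Cfap44 fell by 5.31 ± 1.51 in LTR (adjusted p = 0.0235, lost without any 1 of 5 libraries, at 0.0588 to 0.0749), and in the libraries labelled NF1 it differed by -3.52 ± 1.35 (adjusted p = 0.0882, and 0.0427 without the filter or 0.00198 without NF1 2). Cfap43 read 31.9, 30.5 and 38.6 CPM in NSC, 18.3, 16.2 and 21.7 CPM in LTR and 27.1, 27.7 and 16.5 CPM in NF1 1 to 3. All 6 tumour libraries lay below the NSC range. It fell by 0.84 ± 0.25 in LTR (adjusted p = 0.0275, lost without any 1 NSC or LTR library, at 0.0535 to 0.109) and differed by -0.50 ± 0.25 among libraries labelled NF1 (adjusted p = 0.168). Tppp3, a tubulin-binding protein abundant in ciliated cells, read 11.6, 3.01 and 16.1 CPM in NSC, 5.54, 5.26 and 3.88 CPM in LTR and 0.348, 2.34 and 0.409 CPM in NF1 1 to 3. NSC 3 lay below the LTR range, and LTR was not called (-1.06 ± 0.78, adjusted p = 0.303). For the libraries labelled NF1, Tppp3 fell by 3.31 ± 0.85 (adjusted p = 0.0227, lost without NSC 1, NSC 5, NF1 1 or NF1 3, at 0.0572 to 0.0744, and at 0.0575 with the 6 libraries alone).

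**Figure D3:**
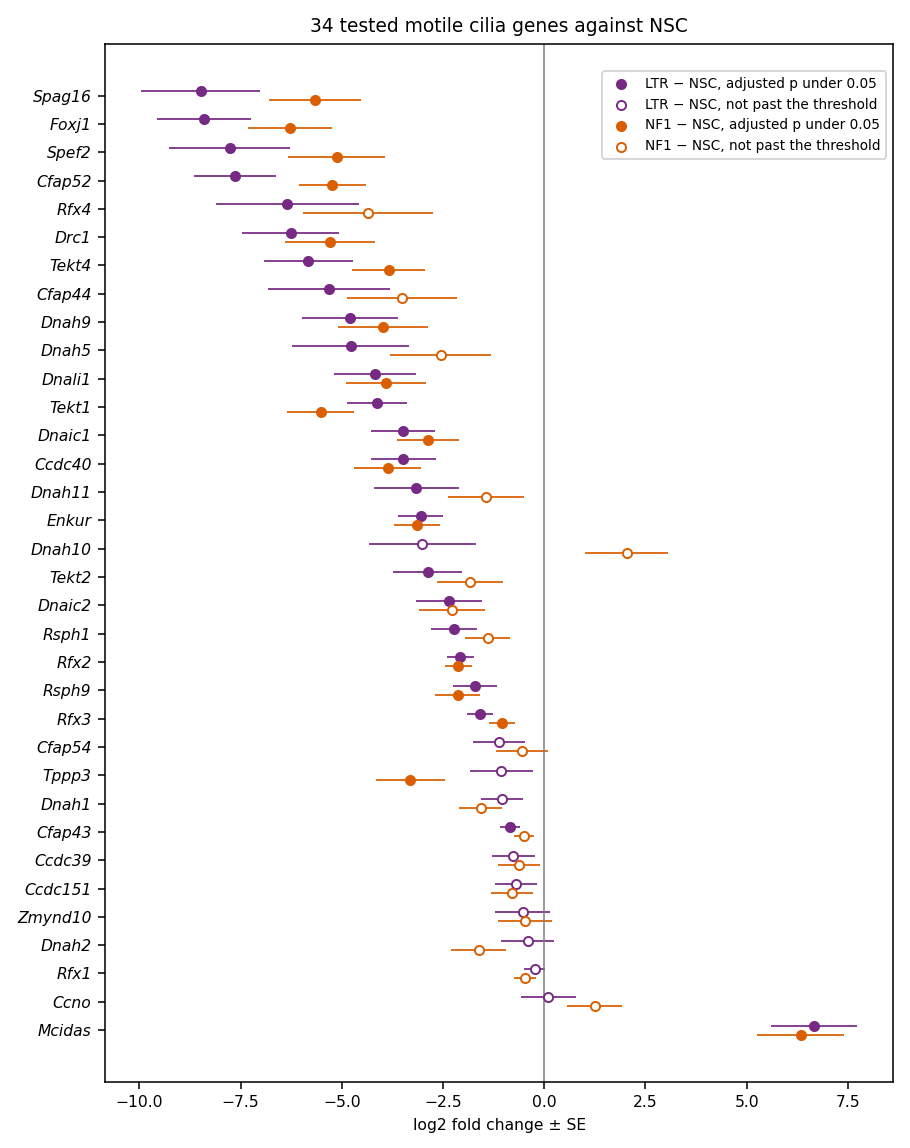
Log2 fold change ± SE (horizontal axis) of the 34 tested motile cilia genes in LTR (purple) and the libraries labelled NF1 (orange) against NSC, filled where the adjusted p was under 0.05. Most points lie left of 0, the Mcidas points lie on the right in both, and the ends of the scale for Mcidas and Spag16 rest on groups with no count, so their sizes depend on the prior count of the fit.

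No member separated the tumour lines from each other at the threshold. Of all genes tested, 0.0% were called between the libraries labelled NF1 and LTR by edgeR, with 1596 genes at an unadjusted p under 0.05. DESeq2 called 333 and limma-voom 1. Dnah10 and Tppp3 were the 2 members at an unadjusted p under 0.05. Dnah10 was higher in each NF1 library than in each LTR library, by a log2 difference of 5.04 ± 1.30 (adjusted p = 0.325, and 0.0103 by DESeq2). Tppp3 was lower in each, by -2.24 ± 0.82 (adjusted p = 0.414, and 0.00981 when NSC 3 and NF1 2 were both left out). Rsph1 also had no overlap, higher in the libraries labelled NF1 by 0.83 ± 0.56 (adjusted p = 0.664). Of all genes with a count, 5.13% lay wholly higher and 3.74% wholly lower in this comparison, so 2 and 1 of 42 members are near the share of all genes.

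Many members were low in NSC 3 among the stem cells and high in NF1 2 among the libraries labelled NF1. Among the 34 members with a mean over the filter level in NSC, 29 (85.3%) had their lowest NSC level in NSC 3, against 45.3% of 15247 genes, and 21 (61.8%) lay at least 2-fold below both other cultures, against 11.8%. The median log2 ratio of NSC 3 to the mean of NSC 1 and NSC 5 was -1.51 for members and -0.0094 for all genes. Rfx4, Ccno and Dnaic1 were the 3 members that were higher in NSC 3. Among 23 members with such a mean in the libraries labelled NF1, all 23 had their highest level in NF1 2, against 47.2% of 14571 genes, and 14 (60.9%) were at least 2-fold above both others, against 2326 of those 14571. The median log2 ratio there was 1.78 for members and 0.10 for all genes, and Rfx4, Cfap44, Foxj1 and Dnah10 led it. The mean used for entry includes NF1 2, so genes high in NF1 2 enter more easily, members and all genes alike. For Dnah11, Dnaic2, Ccdc40, Tekt2 and Cfap44, NF1 2 was the 1 NF1 library over the filter level. Their highest place in NF1 2 followed from this selection.

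Marker genes of other cell types also differed in these libraries, and their part in the members' levels was not tested. The summed level of 6 mural cell and fibroblast markers was 502, 19.7 and 638 CPM in NSC 1, 3 and 5, set mostly by Col1a1 at 487, 16.5 and 621 CPM, with Dcn and Lum at most 0.106 CPM. It was 18.9 to 156 CPM in LTR and 7.33 to 41.2 CPM in the libraries labelled NF1, where Lum was at 0 in both. Of 3 tested markers of this list, 2 were lower and 1 higher in LTR. The higher one was Col3a1, from 1.03 ± 0.790 CPM in NSC to 66.3 ± 74.6 CPM in LTR (edgeR adjusted p = 0.00609). Col1a1 read 2.98 ± 1.00 CPM in LTR. The 10 neuroblast and neuron markers summed to 251, 108 and 328 CPM in NSC, against 44.6 to 104 CPM in LTR and 83.1 to 86.5 CPM in the libraries labelled NF1, and the 10 neural stem cell markers to 6677, 8275 and 6055 CPM. In NF1 2 the stem cell markers summed to 3419 CPM against 1206 and 827 CPM in NF1 1 and NF1 3, and to 742 to 1237 CPM in LTR. The 8 microglia markers summed to at most 6.84 CPM in any library. Leaving out both NSC 3 and NF1 2, an alternative chosen after the values were seen, 31 of 36 tested members were lower and 1 higher in LTR, and 30 lower and 1 higher in the libraries labelled NF1. Of all genes 49.7% and 46.4% were then called, 4325 and 4098 of 16132 lower. The libraries left out are those in which many members stood low or high, so this choice favours lower calls of members. The calls that it adds are therefore no separate support. Cfap54 (adjusted p = 0.00373 and 0.00207), Ccdc39 (0.0147 and 0.0288) and Ccdc151 (0.0468 and 0.0114) then passed in both comparisons, and Tppp3 in LTR too (0.00354).

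**Figure D4:**
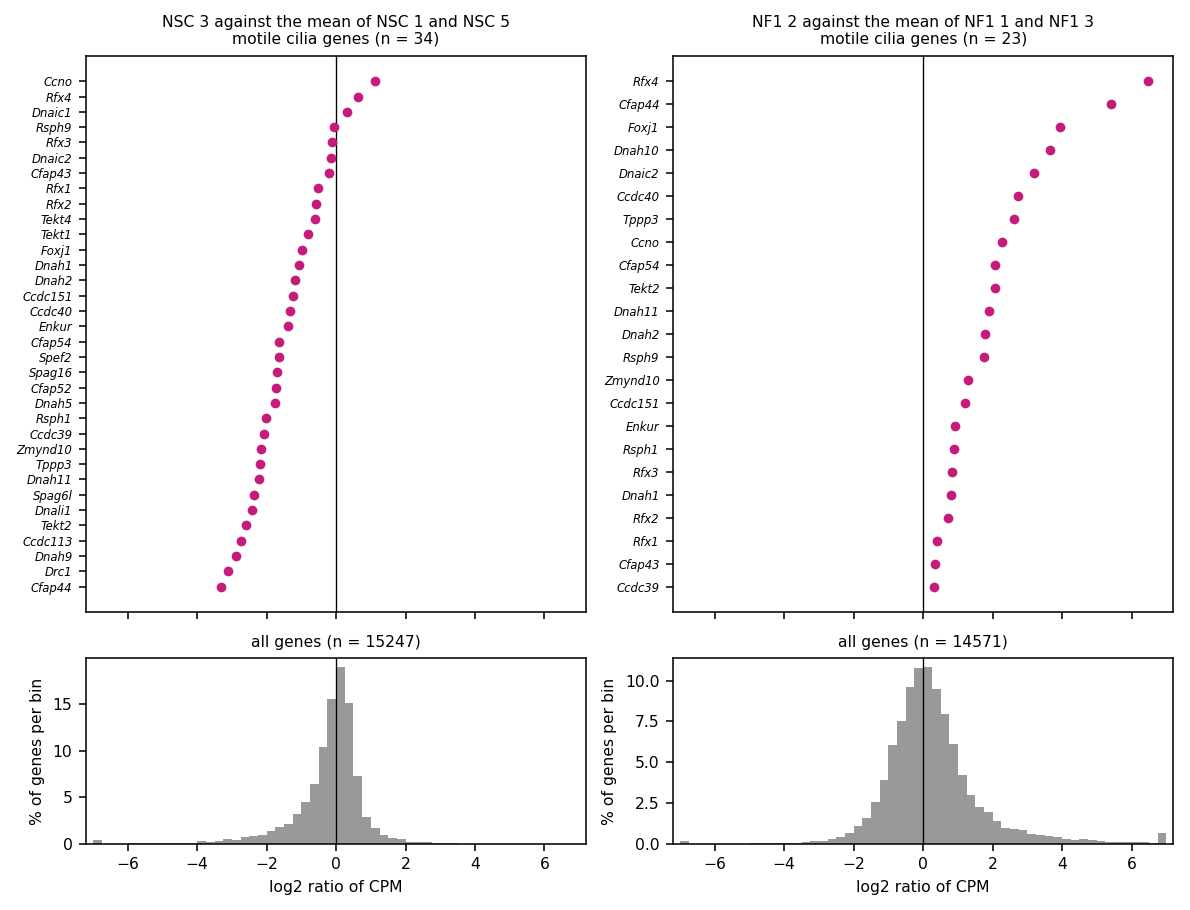
Top, log2 ratio of CPM in NSC 3 to the mean of NSC 1 and NSC 5 (left, 34 members) and in NF1 2 to the mean of NF1 1 and NF1 3 (right, 23 members), 1 row per gene. Bottom, the same ratio over all genes as a percentage per bin, the outer bars holding ratios past the axis, shows bulk near 0 while the members' medians are -1.51 and 1.78.

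Markers of ependymal cells that are not part of the axoneme did not follow one pattern. Of 12 such genes, 8 were tested, and 3 were lower and 1 higher in each tumour line. The 37.5% lower in each stands beside 20.9% and 13.1% of all genes. Median log2 fold changes were -1.91 and -3.17, against -0.06 and 0.0039 over all genes. Rarres2 fell from 2.76 to 0.0695 CPM in LTR (edgeR adjusted p = 0.00460) and to 0.0523 CPM in the libraries labelled NF1 (0.00552). S100b fell from 2.34 to 0.0396 CPM in LTR (0.0113). These tumour means lie under the filter level of 0.305 CPM. Tmem212 had no count in NSC and Ccdc153 at most 0.291 CPM, whereas Foxj1 reached 206 CPM there. Calml4 read 1.77, 0 and 3.00 CPM in NSC 1, 3 and 5. Aqp4, a water channel that astrocytes and stem cells share with ependyma, read 140, 76.6 and 143 CPM in NSC and at most 3.26 CPM in a tumour library, and Cd24a was the gene called higher. The 12 choroid plexus markers, another cell type of the ventricle, summed to 14.4 to 22.5 CPM in NSC, 8.12 to 42.6 CPM in LTR and 39.3 to 138 CPM in the libraries labelled NF1, mostly Aqp1 in the last. Ttr, the defining transcript of that epithelium, was at most 0.429 CPM in NSC, and the 5 endothelial markers summed to 1.48 to 4.13 CPM there. The 12 ependymal genes summed to 849 to 876 CPM in NSC, 747 to 1185 CPM in LTR and 938 to 1297 CPM in the libraries labelled NF1, most of it Cd24a and Nnat.

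The wider pathway was read from 7 further gene lists, none of which shares a gene with the members. Beside their counts stand the shares of all genes called lower, 20.9% in LTR and 13.1% in the libraries labelled NF1. The filter on low counts applied here too, so low genes of these lists could enter through NSC libraries alone. Other arm dyneins and docking genes gave 5 lower calls in LTR and 2 in the libraries labelled NF1, of 9 tested, with median log2 fold changes of -1.58 and -1.21. Ccdc114, an outer arm docking protein, fell from 3.78 ± 2.55 CPM to 0.359 ± 0.0747 in LTR (adjusted p = 0.00655) and to 0.221 ± 0.0853 CPM in the libraries labelled NF1 (adjusted p = 0.00530). The inner arm chain Dnah7a fell from 1.25 ± 0.498 to 0.0552 ± 0.0236 CPM (adjusted p = 0.00363) and to 0.158 ± 0.140 CPM (adjusted p = 0.0155). Its LTR libraries read 0.0296 to 0.0762 CPM, all under the filter level of 0.305 CPM. Other radial spoke and central pair genes gave 6 and 4 lower calls of 15 tested, with medians of -1.34 and -0.86. Dnajb13, a spoke protein, fell from 4.42 ± 3.05 to 0.214 ± 0.144 CPM in LTR (adjusted p = 0.00933) and to 0.211 ± 0.207 CPM in the libraries labelled NF1 (adjusted p = 0.0132). Genes of the nexin-dynein regulatory complex, further tektins and doublet proteins gave 4 lower and 1 higher call in LTR and 6 lower in the libraries labelled NF1, of 15 tested, with medians of -1.02 and -0.87. In that list Cfap126 fell from 2.64 ± 0.787 to 0.181 ± 0.111 CPM (adjusted p = 0.00400) and to 0.329 ± 0.242 CPM (adjusted p = 0.0120). It read 0.148, 0.305 and 0.0895 CPM in LTR 1 to 3, none over the filter level of 0.305 CPM. The abundant Cfap20 did not pass, at 43.6 ± 3.11, 47.2 ± 3.12 and 45.7 ± 10.2 CPM in NSC, LTR and the libraries labelled NF1.

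Also read were transport and basal body genes, which motile and primary cilia share, and lists of dynein arm assembly and multiciliation genes. Of 29 intraflagellar transport genes, all tested, 6 were lower and 2 higher in LTR and 2 lower and 2 higher in the libraries labelled NF1. The 20.7% lower in LTR is close to the 20.9% of all genes, and the 6.9% lower in the other comparison stands beside 13.1%. Their medians were -0.17 and -0.14, against -0.06 and 0.0039 over all genes. Wdr35, a retrograde transport subunit, fell from 95.8 ± 13.9 to 40.3 ± 5.64 CPM in LTR (adjusted p = 0.00623) and to 48.0 ± 14.2 CPM in the libraries labelled NF1 (adjusted p = 0.0205). Kif17, a ciliary kinesin, rose from 0.660 ± 0.0435 to 3.57 ± 0.485 CPM (adjusted p = 0.00625) and to 2.44 ± 1.47 CPM (adjusted p = 0.0223). Of 32 BBSome, transition zone and basal body genes, 1 was lower and 2 higher in LTR and 1 lower in the libraries labelled NF1, the gene in common being Bbs1, which fell from 17.2 ± 2.88 to 7.08 ± 2.92 CPM (adjusted p = 0.0208) and to 6.61 ± 1.60 CPM (adjusted p = 0.0225). Cytoplasmic factors that assemble dynein arms gave 4 higher calls in LTR of 10 tested, and the smallest adjusted p in the libraries labelled NF1 was 0.0528 (Dnaaf2). Ruvbl2 and Ruvbl1, general chaperone ATPases, were both higher in LTR. Ruvbl2 read 220 ± 31.0 CPM against 85.7 ± 14.1 in NSC (adjusted p = 0.00645), and Ruvbl1 115 ± 19.6 CPM against 47.3 ± 7.10 (adjusted p = 0.0102). Of 14 tested multiciliation and centriole amplification genes, 1 was lower and 1 higher in LTR, and 2 lower and 1 higher in the libraries labelled NF1. E2f4, the partner of multicilin and a general cell cycle factor, rose from 38.6 ± 2.57 to 87.7 ± 6.18 CPM in LTR (adjusted p = 0.00169) and to 68.5 ± 8.11 CPM in the libraries labelled NF1 (adjusted p = 0.00881). Ccdc78, a deuterosome protein, fell from 6.01 ± 2.25 to 0.977 ± 0.294 CPM (adjusted p = 0.00438) and to 0.721 ± 0.222 CPM (adjusted p = 0.00373).

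**Figure D5:**
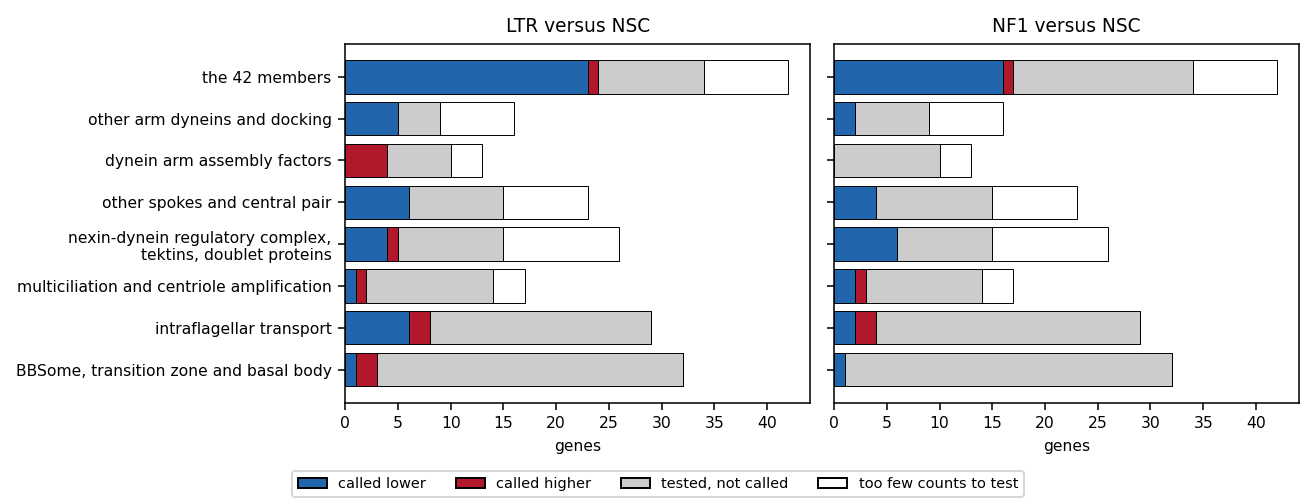
Number of genes (horizontal axis) called lower (blue), called higher (red), tested but not called (grey) and too low to test (white) in LTR (left) and the libraries labelled NF1 (right) against NSC, for the 42 motile cilia genes and 7 further cilia gene lists. Blue makes up 23 and 16 of the first bars, and at most 2 of the transport and basal body bars in the right panel. In each first bar, 8 of the blue genes passed the filter through NSC libraries alone. In LTR, Dnah5, Dnah11, Dnaic1 and Cfap44 also had no LTR library over the filter level.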

How the data were processed

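RNA sequencing measured 9 mouse cultures, 3 in each of 3 groups taken from the labels. The authors deposited raw whole-number read counts per gene. STAR 2.5.2a, HTSeq and DESeq2 1.8.2 and the GRCm38 (mm10) genome are named in the submitters' processing notes, whereas the annotation release and the strand setting of the counting are not stated. Each column was tied to a sample by its name.

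All 9 libraries were fitted in 1 model with edgeR 4.0.16 (R 4.3.3), with TMM scaling, filterByExpr at a minimum count of 10, and the quasi-likelihood F test, adjusted by Benjamini-Hochberg over all 15696 genes tested. Standard errors came from the F statistic. CPM is the count scaled by the TMM library size, and RPKM divides it by the union of the gene's GENCODE M21 exons. Fold bounds use a floor of 3 counts over the group without counts, and counting intervals are 95% exact (Clopper-Pearson) intervals on summed counts. Totals ran from 28600479 to 57231024 counts, so 1 count is a small share of a library but the rarest members rest on single counts. Counts were also simulated with 3 libraries a group and 200 genes changed per comparison. There 43% of 4-fold and 1% of 2-fold changes were recovered for LTR against NSC, and 36% and 5% for NF1 against NSC. In the data 35.9% and 23.1% of all genes were called. With so few genes changed, the adjusted p is harder to pass, so these shares do not give the power of the tests reported here.

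The members and lists were chosen with earlier results of these data known. All 42 members were reported. From each other list at most 3 called genes with the smallest adjusted p and the most abundant gene not called could be named, and marker genes as needed. Promoters printed were those of called members with the RFX half-site, at most 4, in place of the strict X-box form. That choice was made after seeing that no called member with a promoter matched the strict form. Ccdc151 was added as the 1 member that did. The alternatives were RLE, upper quartile and total scaling, 2 filters, DESeq2 1.42.0, limma-voom (limma 3.58.1), a fit of the 6 libraries compared, a replicate block and each library left out. Leaving out NSC 3 and NF1 2 together was chosen after seeing the data. No pair of libraries of a group agreed within sampling noise.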

Additional observations from a re-analysis of the deposited data

How the results depend on the processing

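Of the members called, 13 of 24 in LTR and 7 of 17 in the libraries labelled NF1 were called under every alternative run, and no called member changed direction. Members called ranged from 16 to 27 in LTR and from 9 to 28 in the libraries labelled NF1 when 1 library was left out. For the latter, 9 remained without NSC 1 or without NSC 5, 10 without NF1 1, and 28 were called without NF1 2. No member was called between the tumour lines in any of those fits (0 to 0). Genes called ranged from 3281 to 7640 in LTR, from 1752 to 6900 in the libraries labelled NF1, and from 0 to 34 between the tumour lines. With at least 10 CPM in 3 libraries, 5 members were called in LTR (7 tested) and 3 in the libraries labelled NF1, with 2103 genes called in the latter; fewer genes were tested. A count added after seeing the data left out the 9 members that passed the filter through NSC or tumour libraries alone. It gave 15 called in LTR and 8 in the libraries labelled NF1, of 25 tested. The 15 include Dnah5, Dnah11, Dnaic1 and Cfap44, for which no LTR library was over the filter level. Leaving out both NSC 3 and NF1 2, which favours lower calls of members, gave 31 members and 7485 genes in the libraries labelled NF1. It gave 104 genes and 1 member (Tppp3) between the tumour lines. Between those, 52 genes were called without a filter, 333 genes and 1 member (Dnah10) by DESeq2, and 1 gene by limma-voom.

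With the replicate number as a block, 3477 genes and 17 members were called in LTR, and 1942 genes and 12 members in the libraries labelled NF1. The labels do not say whether the numbers pair the samples. The correlations of same-numbered deviations were 0.12, -0.03 and -0.18 between LTR and NF1 libraries. They were 0.09 and -0.05 between NSC and LTR, and -0.08 and 0.04 between NSC and NF1. With 3 libraries a group, such values cannot settle the pairing. The same block gave a Ccno difference of -0.22 in LTR. With it, Rfx4 was called in the libraries labelled NF1 (adjusted p = 0.0223).

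Differences that changed sign belonged to members that were not called. Over the fits without 1 library, LTR differences ran from -0.43 to 0.0092 for Rfx1 (without LTR 2), from -0.21 (without NSC 1) to 0.70 for Ccno, and from -0.85 to 0.17 (without NSC 1) for Zmynd10. In the libraries labelled NF1 they ran from -1.03 to 0.22 (without NSC 1) for Zmynd10 and from -0.20 (without NF1 2) to 2.70 for Dnah10, which was -0.49 with NSC 3 and NF1 2 both left out. The cause was not tested. The median number of members detected was 39, 27 and 26 at 3 counts in NSC, LTR and the libraries labelled NF1, and 35, 19 and 19 at 10 counts. Searching promoters for the half-site in place of the strict X-box form raised the count of members with a match from 1 to 13. Depth limits the rarest members, which rest on a few counts.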

Other observations

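The RFX half-site GTTGCC was also counted in the promoters of the other cilia gene lists, where 11.822% of all genes with a promoter hold it. It was present in 11 of 22 nexin-dynein regulatory complex, tektin and doublet genes, 36.364% of the dynein arm assembly factors, 30.769% of the other arm dyneins and docking genes and 29.167% of the intraflagellar transport genes. The other radial spoke and central pair genes held it in 20.0%, the BBSome, transition zone and basal body genes in 17.241% and the multiciliation genes in 14.286%. The lists are small and were not tested against each other.

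Tekt5, a tektin, measured 0.765 ± 0.259 CPM (SD, n = 3) in NSC and was listed at 0 in each LTR library (adjusted p = 0.00559, edgeR). It read 0.029, 0.224 and 0.0341 CPM in NF1 1 to 3. The NSC libraries alone were over the filter level of 0.305 CPM, so Tekt5 entered the test through them and had to differ.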
